A study of Mus musculus with 36 samples.

Results

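The m6A writer complex is the nuclear enzyme assembly that adds a methyl group to selected adenosines of messenger and noncoding RNA while they are being made. Its catalytic core is a heterodimer, in which METTL3 carries the methyltransferase activity and METTL14 holds the RNA. WTAP, ZC3H13, the RNA-binding RBM15B and its paralogue RBM15, VIRMA and the E3 ligase-like CBLL1 (also called HAKAI) form the regulatory part that brings the core to RNA. In embryonic stem cells the mark is known for shortening the life of the transcripts that carry it, among them transcripts of pluripotency regulators. The 6 genes described here, Mettl3, Mettl14, Wtap, Zc3h13, Rbm15b and Cbll1, were chosen by their symbols, and all 6 were found among the 18419 genes listed in all 6 deposited tables (22979 genes in any table).

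The series is a SLAM-seq experiment, in which newly made RNA is labelled with 4-thiouridine (4sU) and read out as T-to-C changes in sequencing. It used 3 mouse XX embryonic stem cell lines of the iXist-ChrX129 background, a Mus castaneus x 129S cross with a TetOn promoter on the 129S Xist allele and Bgl stem loops in Xist exon 7. Each line was 1 clone carrying a C-terminal FKBP12F36V degron tag on METTL3, YTHDC1 (the nuclear m6A reader) or ZCCHC8 (a subunit of the nuclear exosome targeting complex). In the dTAG arm the tagged protein was degraded with dTAG-13, given 2 h before doxycycline, and the Ctrl arm received none. Doxycycline (1 µg/ml) was given to both arms 20 h ahead of the 4 h pulse with 500 µM 4sU and stayed through the pulse and the chase, so Xist was induced in every sample. The label was chased with 50 mM uridine for 0, 90 or 180 min. There were 2 replicates of each of the 18 groups, which gave 36 libraries (12 for a line and 6 for an arm of a line). By the study's reporting summary, repeats were independent runs of a clone, and the wells of a repeat came from a shared batch of cells, so a replicate number marks a batch and p-values do not cover differences between clones.

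Libraries of the METTL3, YTHDC1 and ZCCHC8 lines held 9547507 to 18652000, 10397753 to 16129632 and 5274684 to 10257631 assigned reads. The 2 replicates of a group differed by 2.34 to 4.20 times counting noise (chi-square per degree of freedom over genes) in the ZCCHC8 line, against 18.9 to 72.6 (METTL3 line) and 24.7 to 35.7 (YTHDC1 line). Embryonic stem cell markers were present in every library at a summed 2871 to 3949 CPM over 10 genes, where CPM is the read count scaled to the assigned total of the library. The summed level of 10 fibroblast markers, which would show the feeder cells of the culture, was 27.0 to 70.2 CPM, with 1 of the 10 (Lum) at 0 throughout the METTL3 Ctrl libraries. Over 5 primitive endoderm markers it was 3.88 to 13.4 CPM.

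The genes were placed on mm10 with GENCODE M21, and all are annotated as protein coding. Mettl3 (ENSMUSG00000022160) lies at chr14:52294841-52305128 on the minus strand, and 933 of its exon bases are shared with Tox4 on the plus strand. Mettl14 (ENSMUSG00000028114) lies at chr3:123368297-123386108 and Wtap (ENSMUSG00000060475) at chr17:12966796-12994169, both on the minus strand. Zc3h13 (ENSMUSG00000022000) lies at chr14:75284373-75344426 on the plus strand. Rbm15b (ENSMUSG00000074102), at chr9:106880918-106887428 on the minus strand, overlaps Dcaf1 and Manf over 89 exon bases, and Cbll1 (ENSMUSG00000020659), at chr12:31484829-31499616 on the minus strand, overlaps the antisense gene Gm29542 over 704. The library kit keeps strand, but whether the counting used it was not given in the sources used here, so shared bases of Mettl3 and Cbll1 could hold reads of their antisense neighbours.

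The writer complex prefers a short sequence around the methylated A, of which GGACT in DNA letters is the best known form. GGACT was searched on the sense strand of the longest protein-coding transcript of each gene, and occurrences cannot overlap one another. It occurred 6 times in Wtap (1.88 per kb), 4 times in Mettl3 (1.98 per kb), 7 times in Zc3h13 (1.14 per kb), 6 times in Rbm15b (0.922 per kb), 5 times in Cbll1 (1.27 per kb) and 5 times in Mettl14 (0.695 per kb). Over 16996 genes the median was 1.05 per kb, and 91.6% of these transcripts held at least 1. All 6 Wtap occurrences lay in the 3′ untranslated region of this transcript model, as did all 5 of Mettl14, whereas all 7 of Zc3h13 lay in its coding part. The Wtap model had 6 exons and 3187 bases. Its last occurrence, at position 3126, lay at 12972730-12972758, whereas the annotated gene reaches down to 12966796. Other Wtap transcripts were not searched, so count and placement hold for this transcript only. The Wtap occurrences are printed because Wtap is the member whose RNA changed most, each with 12 bases on either side, in transcript order, with the motif in capitals and mm10 coordinates on the minus strand of chromosome 17. Methylation was not measured here, so each is a match of letters and not a methylated site.
Wtap, chr17:12975048-12975076: cctgatgccgtcGGACTattccgaagaag
Wtap, chr17:12974763-12974791: caataagactgtGGACTtcatgattgttg
Wtap, chr17:12974703-12974731: tttgcctttaaaGGACTtacttatgctaa
Wtap, chr17:12974512-12974540: aaccttaaccaaGGACTgtacaaacgtga
Wtap, chr17:12973665-12973693: ttgtgctttagtGGACTgactgtgggcag
Wtap, chr17:12972730-12972758: cagaaggagaggGGACTtaggagtacgtt

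In Ctrl cells Wtap was the most abundant writer transcript per length, followed by Mettl3. Its median over the 6 Ctrl libraries of a line was 47.3, 48.5 and 39.8 CPM per kb (METTL3, YTHDC1 and ZCCHC8 lines, an order kept in what follows). Mettl3 followed with medians of 26.1, 29.4 and 27.6 CPM per kb. The ranges of Wtap and Mettl3 did not overlap in the METTL3 and YTHDC1 lines (35.2 to 62.9 against 25.1 to 28.7 CPM per kb in the METTL3 line) but did in the ZCCHC8 line. Rbm15b came next at medians of 15.4, 16.7 and 18.7 CPM per kb, clear of Mettl3 in every line. Zc3h13 followed at 14.2, 11.3 and 12.1 CPM per kb and was separated from Rbm15b only in the ZCCHC8 line. Cbll1 and Mettl14 were lowest and overlapped each other in every line, with medians between 5.45 and 8.85 CPM per kb.

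**Figure D1:**
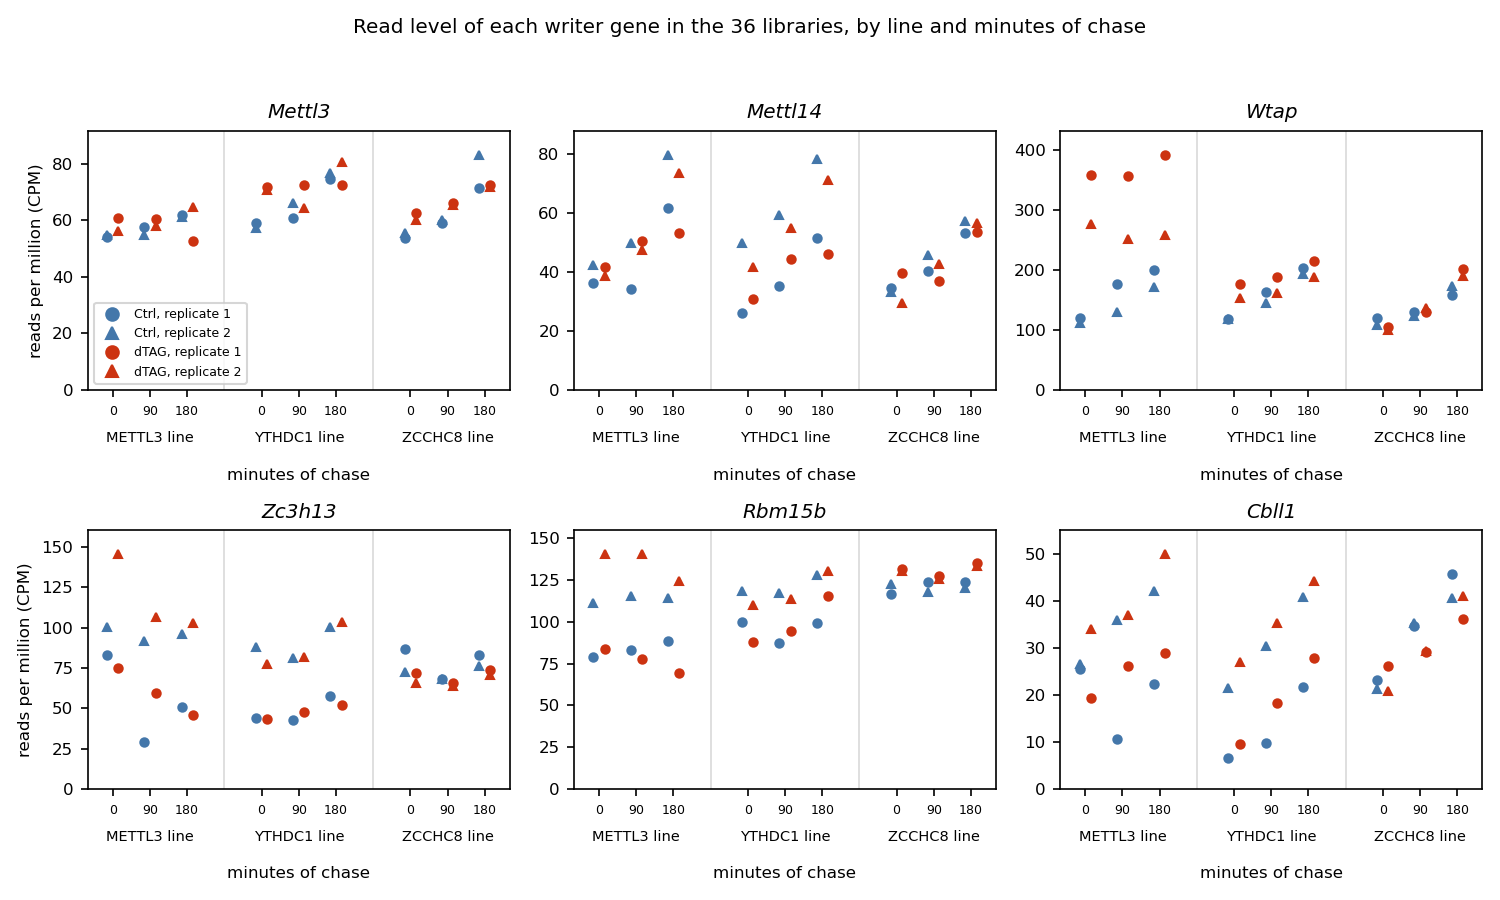
CPM (read count scaled to the assigned total of the library) of the 6 writer genes in each of the 36 libraries, with line and minutes of chase on the x axis, Ctrl in blue, dTAG in red, replicate 1 as circles and replicate 2 as triangles. The 6 dTAG libraries of the METTL3 line sit at 251 to 393 CPM for Wtap, above every Ctrl library of any line, and in the METTL3 line Rbm15b is at 69.1 to 88.5 CPM in replicate 1 and at 112 to 141 CPM in replicate 2.

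Levels of the writer genes between the Ctrl cells of the 3 lines were compared with edgeR's quasi-likelihood test, adjusted over all genes by Benjamini-Hochberg, with 0.05 as the threshold in this and every later comparison. Rbm15b was the only member to pass. It read 117 to 124 CPM in the ZCCHC8 line (median 122) and 79.0 to 115 CPM in the METTL3 line (median 100.1), so the lines did not overlap, and the log2 difference was 0.28 (SE 0.091, adjusted p = 0.0297). This was 1 of 6 members, beside 30.1% of all genes tested. Without replicate 1 the difference was 0.11 and the call was lost (adjusted p = 0.112).
No member passed between the METTL3 and YTHDC1 lines (2.36% of genes called) or between the ZCCHC8 and YTHDC1 lines (14% of genes called), by edgeR or by DESeq2, although 1 member in each had an unadjusted p under 0.05 (Mettl3 and Wtap). With the replicate number as a block, Mettl3 was lower in the METTL3 than in the YTHDC1 line (log2 difference -0.20, adjusted p = 0.0299), as 1 member against 14.2% of genes. With the block, Wtap was lower in the ZCCHC8 line than in the YTHDC1 line (-0.23, adjusted p = 0.00578) and than in the METTL3 line (-0.17, adjusted p = 0.0282). Cbll1 was then higher in the ZCCHC8 than in the YTHDC1 line (0.74, adjusted p = 0.0202), and Mettl14 lower in the ZCCHC8 than in the METTL3 line (-0.19, adjusted p = 0.0387). These blocked fits called 46.6% of genes between the ZCCHC8 and YTHDC1 lines and 53.5% between the ZCCHC8 and METTL3 lines.

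Zc3h13, Cbll1 and Rbm15b were higher in replicate 2 throughout the METTL3 and YTHDC1 lines, and Mettl14 throughout the YTHDC1 line. Replicate 2 held more Zc3h13 than replicate 1 in 6 of 6 pairs of the METTL3 line, by a median of 1.92 times, and in 6 of 6 of the YTHDC1 line, by a median of 1.83 times. In the ZCCHC8 line the median was 0.935 times and 0 of 6 pairs were higher. Cbll1 was also higher in 6 of 6 pairs of the METTL3 and YTHDC1 lines, at medians of 1.74 and 2.36 times, against 0.959 times and 3 of 6 pairs in the ZCCHC8 line. Rbm15b was higher in 6 of 6 pairs of both lines too, at medians of 1.55 and 1.23 times, against 0.986 times and 1 of 6 pairs in the ZCCHC8 line. Mettl14 was higher in 6 of 6 pairs of the YTHDC1 line (median 1.53 times) and in 4 of 6 of either other line (1.23 and 1.07 times). Wtap went the other way, with 0 of 6 pairs higher in replicate 2 in both the METTL3 line (median 0.753 times) and the YTHDC1 line (median 0.886 times). Mettl3 held to medians of 0.971, 1.01 and 1.00 times. What sets these replicates apart was not tested.

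With METTL3 degraded, the level of its own transcript did not differ beyond the spread of the libraries. Mettl3 read 54.2 to 62.0 CPM (median 56.3) in the 6 Ctrl libraries and 52.6 to 64.6 CPM (median 59.3) in the 6 dTAG libraries, so the arms overlapped. The log2 fold change was 0.01 (SE 0.088, adjusted p = 0.948). The degron acts on the protein, so these counts say nothing about how much METTL3 was left.

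Wtap, which encodes the subunit that ties the core to the regulatory part, was the only one of the 6 members whose RNA rose past the threshold. Virma, which is not among the 6, rose as well and is given below. In the METTL3 line Wtap read 119 and 112 CPM (replicates 1 and 2) in Ctrl cells at 0 min of chase, 177 and 129.8 CPM at 90 min and 201 and 171 CPM at 180 min. In dTAG cells it read 359 and 277 CPM at 0 min, 356 and 251 CPM at 90 min and 393 and 258 CPM at 180 min. Every dTAG library was above every Ctrl library, and each of the 6 pairs of the same replicate and time was higher in dTAG, by 1.51 to 3.00 times (median 1.99). The log2 fold change was 1.07 (SE 0.188, adjusted p = 0.00285), which is larger than that of 96.8% of genes. Wtap was the 1 member of 6 that passed, beside 19.9% of all genes (48.2% with the replicate block, where Wtap was again the only one). When the 3 chase libraries of a replicate and arm were summed, 2 samples against 2, the log2 fold change was 1.01 but no gene of 15894 passed (1434 had an unadjusted p under 0.05), Wtap included (adjusted p = 0.487). The summed fibroblast markers were 27.0 to 57.6 CPM in these Ctrl libraries and 33.5 to 70.2 CPM in the dTAG libraries, and their part in the difference was not tested. In bulk RNA of this kind, fewer cells of a type and less RNA per cell cannot be told apart.

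The other 4 writer transcripts of the METTL3 line did not pass. Mettl14, which encodes the RNA-holding partner of METTL3, read 34.1 to 79.8 CPM in Ctrl and 38.5 to 73.5 CPM in dTAG (log2 fold change 0.02, SE 0.116). Rbm15b read 79.0 to 115 CPM against 69.1 to 141 CPM (0.07, SE 0.184). Zc3h13 (0.23, SE 0.292) and Cbll1 (0.24, SE 0.271) had the widest errors. Over the 6 members the median log2 fold change was 0.15, against 0.01 over all genes.
Without replicate 1, Rbm15b (0.22, adjusted p = 0.00487) and Zc3h13 (0.26, adjusted p = 0.00139) passed as well, beside 51% of genes, and without replicate 2 Cbll1 did (0.44, adjusted p = 0.0201), beside 39.2% of genes. Wtap passed in both cases. With a replicate left out, in this and every other comparison, each arm of a line comes from a single batch. Those p-values cover only the spread among the libraries of that batch.

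**Figure D2:**
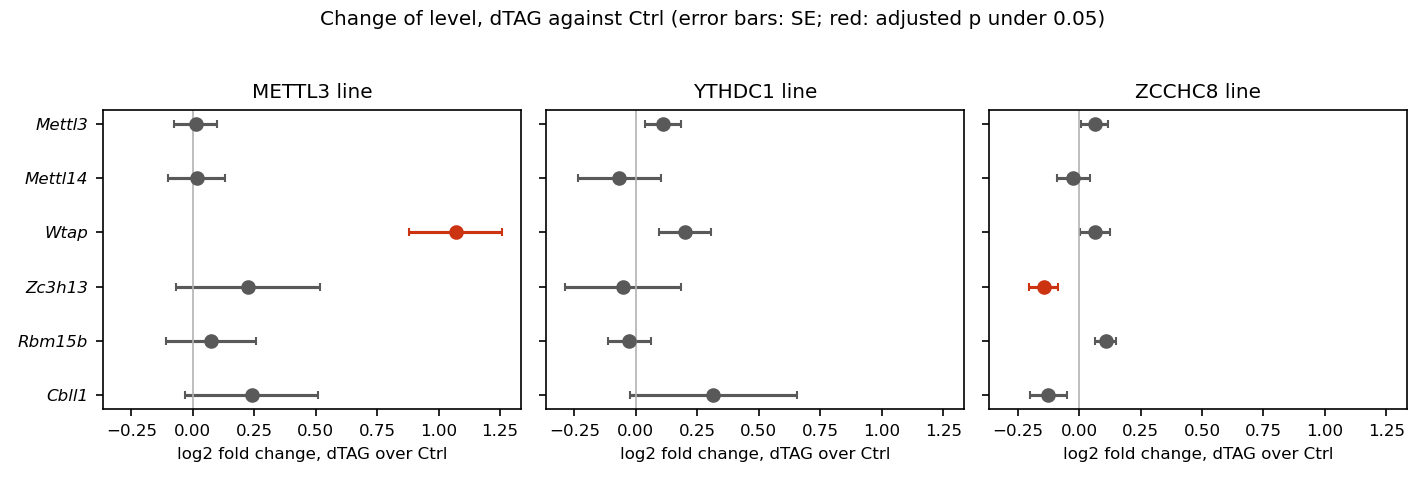
Log2 fold change of each writer gene, dTAG over Ctrl, in the METTL3, YTHDC1 and ZCCHC8 lines, from the edgeR fit of each line. Bars are the standard error and red marks an adjusted p under 0.05. Wtap in the METTL3 line stands at 1.07, and the only other red point is Zc3h13 in the ZCCHC8 line at -0.14.

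In the YTHDC1 line none of the 6 passed, beside 5.1% of all genes; none had an unadjusted p under 0.05, and DESeq2 also called 0. Wtap read 118 to 204 CPM (median 154) in Ctrl and 154 to 215 CPM (median 183) in dTAG. The arms overlapped, although 5 of 6 pairs were higher in dTAG, and the log2 fold change was 0.20 (SE 0.107, adjusted p = 0.359). With the replicate block Wtap passed at 0.19 (adjusted p = 0.0147), and so did Cbll1 at 0.34 (adjusted p = 0.0422), beside 26.9% of genes. With the chase libraries summed, 2 samples against 2, none of 15512 genes passed in edgeR, the members included (698 genes had an unadjusted p under 0.05). Cbll1 was higher in 6 of 6 pairs of this line, by 1.09 to 1.87 times, from 6.64 to 40.7 CPM in Ctrl and 9.60 to 44.3 CPM in dTAG. Mettl3 (0.11), Zc3h13 (-0.05), Mettl14 (-0.07) and Rbm15b (-0.03) did not pass. Without replicate 1 Mettl14 passed (-0.19, adjusted p = 0.0223), beside 23.9% of genes, and without replicate 2 Cbll1 did (0.53, adjusted p = 0.0245), beside 9.52%.

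In the ZCCHC8 line, where replicates were closest, the shifts were small. Zc3h13 read 68.2 to 86.6 CPM (median 74.1) in Ctrl and 63.6 to 73.7 CPM (median 68.0) in dTAG. It was lower in dTAG in 6 of 6 pairs although the arms overlapped, and the log2 fold change of -0.14 (SE 0.058) was just past the threshold (adjusted p = 0.0499). It was the 1 member of 6 called, against 39.6% of genes, and the call was lost with either replicate left out, with the DESeq2 Wald test and with the chase libraries summed (adjusted p = 0.0571 to 0.199).
Rbm15b read 117 to 124 CPM in Ctrl and 126 to 135 CPM in dTAG, with no overlap between arms, and its log2 fold change of 0.11 (SE 0.044, adjusted p = 0.0521) passed only with the replicate block (adjusted p = 0.0254, 45.7% of genes called). Wtap, at 108 to 173 CPM in Ctrl and 101 to 202 CPM in dTAG, did not pass (0.06, SE 0.060). Mettl3 (0.06), Mettl14 (-0.02) and Cbll1 (-0.12) did not pass either.

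Whether the responses differed between lines was tested as the difference of the dTAG effects in 1 fit over all libraries. Wtap responded more in the METTL3 than in the YTHDC1 line, by 0.85 on the log2 scale (SE 0.194, adjusted p = 0.00210), and less in the ZCCHC8 than in the METTL3 line, by -1.05 (SE 0.195, adjusted p = 0.000177). Between the ZCCHC8 and YTHDC1 lines its difference was -0.20 (SE 0.194, adjusted p = 0.58). It was the 1 member of 6 called in each of the first 2 comparisons, beside 20.2% and 23.4% of genes, and no member was called in the third (by edgeR or DESeq2, and none at an unadjusted p under 0.05), beside 14.3%. With the replicate block the Zc3h13 response also differed between the ZCCHC8 and METTL3 lines (-0.41, adjusted p = 0.0141), beside 43.1% of genes.

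The labelled share of each transcript was taken as the new-to-total RNA ratio estimated by GRAND-SLAM, which runs from 0 to 1 and comes with a 90% credible interval. At the end of the pulse in Ctrl cells Cbll1 was the most fully labelled writer transcript, at 0.912 to 0.970 in the 6 Ctrl libraries of the 3 lines, and Wtap followed at 0.860 to 0.922. Zc3h13 was the least, at 0.603 to 0.722. Median ratios over all genes were 0.496 to 0.603 in the same 6 libraries, so all 6 writer transcripts were labelled above the middle of the transcriptome.
After 180 min of chase, Ctrl cells of the METTL3 line kept 35.99% and 40.2% of the 0 min ratio for Cbll1 (replicates 1 and 2), 44.9% and 45.5% for Wtap, 52.8% and 56.2% for Rbm15b, and 56.7% and 58.1% for Mettl14. Mettl3 kept 70.3% and 65.9%, and Zc3h13 66.8% and 73.6%. Over the genes that passed the same filter the median was 82.1% and 85.5%. Cbll1 had the lowest share left of the 6 in all 12 pairs of libraries. The medians over such genes reached 118.5% in the ZCCHC8 line, so the ratio does not fall steadily with time for every gene. Shares left are read within a line only.

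In METTL3-depleted cells the labelled share of Wtap started lower and fell less over the chase. At 0 min it was 0.860 (0.838 to 0.879) and 0.922 (0.904 to 0.938) in the 2 Ctrl libraries and 0.575 (0.561 to 0.588) and 0.542 (0.527 to 0.557) in the 2 dTAG libraries. The T-to-C rate itself was 6.49% (95% Wilson interval 6.25% to 6.73%) and 8.23% (7.95% to 8.53%) in Ctrl and 3.93% (3.82% to 4.03%) and 5.01% (4.87% to 5.14%) in dTAG, where intervals cover counting error only. At 90 min it was 0.646 and 0.805 in Ctrl and 0.567 and 0.704 in dTAG. At 180 min the order had turned, with 0.386 and 0.420 in Ctrl and 0.456 and 0.580 in dTAG. Thus 79.4% and 107% of the 0 min ratio were left in dTAG cells, against 44.9% and 45.5% in Ctrl. The medians over the 8289 genes tested were 74.3% and 98.9% in dTAG and 82.1% and 85.5% in Ctrl. Among these genes Wtap stood at percentiles 54.4 and 55.5 in dTAG, near the middle, and at 11.1 and 12.9 in Ctrl.
The loss of label was compared as the difference between arms in the slope of the log2 ratio per hour, with limma. For Wtap the slope was 0.34 per hour less steep in dTAG (SE 0.099, unadjusted p = 0.00127), more than for 99.3% of 8289 genes, but the adjusted p was 0.133. No member passed, beside 0.471% of genes, and Wtap was the 1 member with an unadjusted p under 0.05. With the replicate block the Wtap slope passed (0.34, adjusted p = 0.0336), beside 1.19% of genes. With the median log2 ratio of each library subtracted, also added later, the slope was higher in dTAG for Wtap (0.31, adjusted p = 3.07e-05) and Zc3h13 (0.15, adjusted p = 0.0337). It was lower for Mettl14 (-0.15, adjusted p = 0.00411), making 3 of 6 members beside 14.1% of genes. The ratio also depends on total RNA, and from 0 to 180 min total Wtap went from 119 and 112 to 201 and 171 CPM in Ctrl. In dTAG it went from 359 and 277 to 393 and 258 CPM. Labelled Wtap, CPM times the ratio, went from 103 CPM in both replicates to 77.5 and 72.0 CPM in Ctrl. In dTAG it went from 206 and 149.9 to 179 and 149.7 CPM. The part of the total level in the slope was not tested.

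**Figure D3:**
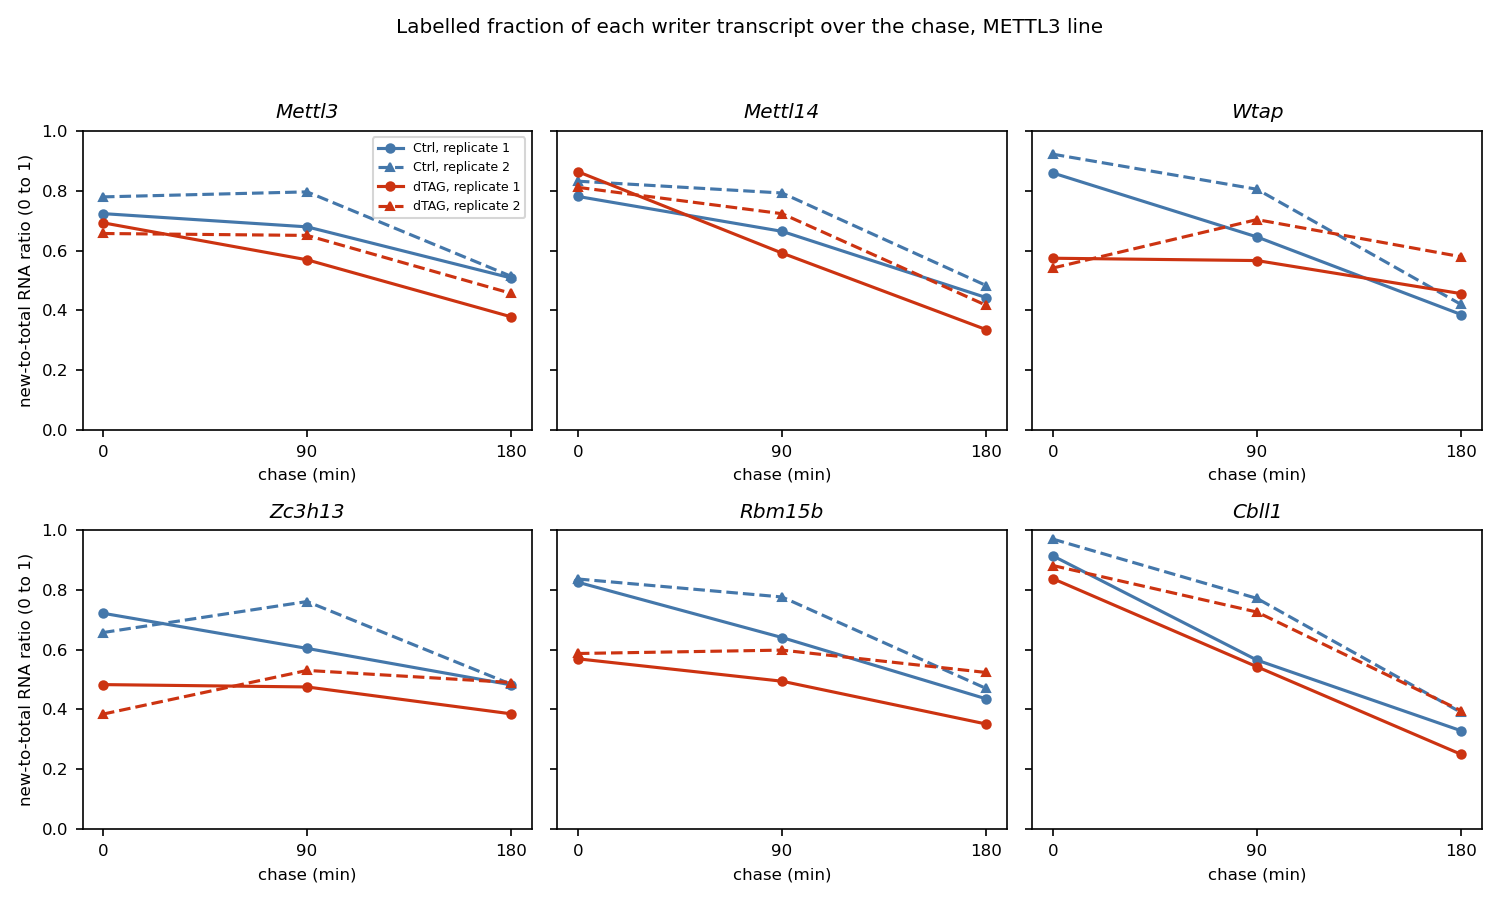
New-to-total RNA ratio of the 6 writer transcripts against minutes of chase in the METTL3 line, Ctrl in blue, dTAG in red, solid lines for replicate 1 and dashed lines for replicate 2. For Wtap the dTAG lines start at 0.575 and 0.542, under the Ctrl lines at 0.860 and 0.922, and end above them.

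Averaged over the chase, 2 of 6 writer transcripts passed for labelled share in METTL3-depleted cells, Zc3h13 and Rbm15b, both lower, beside 27.1% of 8289 genes. The genes that passed were mostly lower (2001 of 2246), and the median log2 difference over all genes was -0.15. With the library median subtracted, an alternative added after the data were seen, 810 genes were lower and 1904 higher. Zc3h13 had ratios of 0.482 to 0.761 (median 0.631) in Ctrl and 0.384 to 0.530 (median 0.479) in dTAG. It was lower in 5 of 6 pairs (log2 difference -0.42, SE 0.108, adjusted p = 0.00559). Rbm15b had ratios of 0.435 to 0.836 (median 0.708) in Ctrl and 0.351 to 0.598 (median 0.546) in dTAG, lower in 5 of 6 pairs (-0.32, SE 0.111, adjusted p = 0.0326). Relative to the median of each library these differences were -0.21 (adjusted p = 0.0460) and -0.11 (adjusted p = 0.222). On the T-to-C rate in place of the ratio, neither passed (adjusted p = 0.145 and 0.585), nor did either with 1 replicate left out (adjusted p = 0.0630 to 0.319).
Mettl3 was lower in 6 of 6 pairs (-0.24, adjusted p = 0.0532) and passed with the replicate block (adjusted p = 0.0160), where 37.5% of genes did. Mettl14 (-0.13), Cbll1 (-0.13) and Wtap (-0.17) did not pass, and their differences were 0.08, 0.09 and 0.04 relative to the library median.

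At the end of the pulse 3 of 6 members passed, all lower. Over the 0 min libraries alone, 2 against 2, a comparison added after the data were seen, Zc3h13 (log2 difference -0.68, SE 0.113), Wtap (-0.67, SE 0.088) and Rbm15b (-0.52, SE 0.089) passed in limma, with adjusted p of 4.31e-08, 9.87e-13 and 9.14e-08, beside 28.5% of genes and a median of -0.10 over all of them. Zc3h13 went from 0.722 and 0.657 in Ctrl to 0.483 and 0.384 in dTAG, and Rbm15b from 0.825 and 0.836 to 0.569 and 0.587. With 2 libraries a group, these tests lean on the spread shared by all genes.

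The ratio and the level together split each transcript into labelled RNA (CPM times the ratio) and unlabelled RNA (the remainder), given here as values with no test. Labelled Wtap at 0 min of the METTL3 line came to 103 CPM in both Ctrl libraries and to 206 and 149.9 CPM in the dTAG libraries. Unlabelled Wtap came to 16.8 and 8.68 CPM in Ctrl and to 153 and 127 CPM in dTAG, 9.10 and 14.6 times as much. At 180 min the arms were closer, at 123 and 99.4 CPM in Ctrl and 214 and 109 CPM in dTAG.
Rbm15b and Zc3h13 showed the same order with less labelled RNA. Unlabelled Rbm15b was 13.8 and 18.3 CPM in Ctrl and 36.1 and 58.2 CPM in dTAG, while labelled Rbm15b was 65.2 and 93.3 against 47.7 and 82.7 CPM. Unlabelled Zc3h13 was 23.2 and 34.4 CPM against 38.7 and 89.8 CPM, and labelled Zc3h13 60.1 and 65.8 against 36.2 and 56.1 CPM. Unlabelled Mettl3 was 15.0 and 12.1 CPM in Ctrl against 18.7 and 19.3 CPM in dTAG, and unlabelled Cbll1 2.20 and 0.807 against 3.13 and 4.03 CPM. For Mettl14 the unlabelled part was 7.90 and 7.13 CPM against 5.69 and 7.26 CPM, with no rise in both replicates. The median ratio over the genes tested was 0.596 and 0.603 in these Ctrl libraries and 0.523 and 0.4835 in dTAG, so the unlabelled share was larger for the middle gene too.

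**Figure D4:**
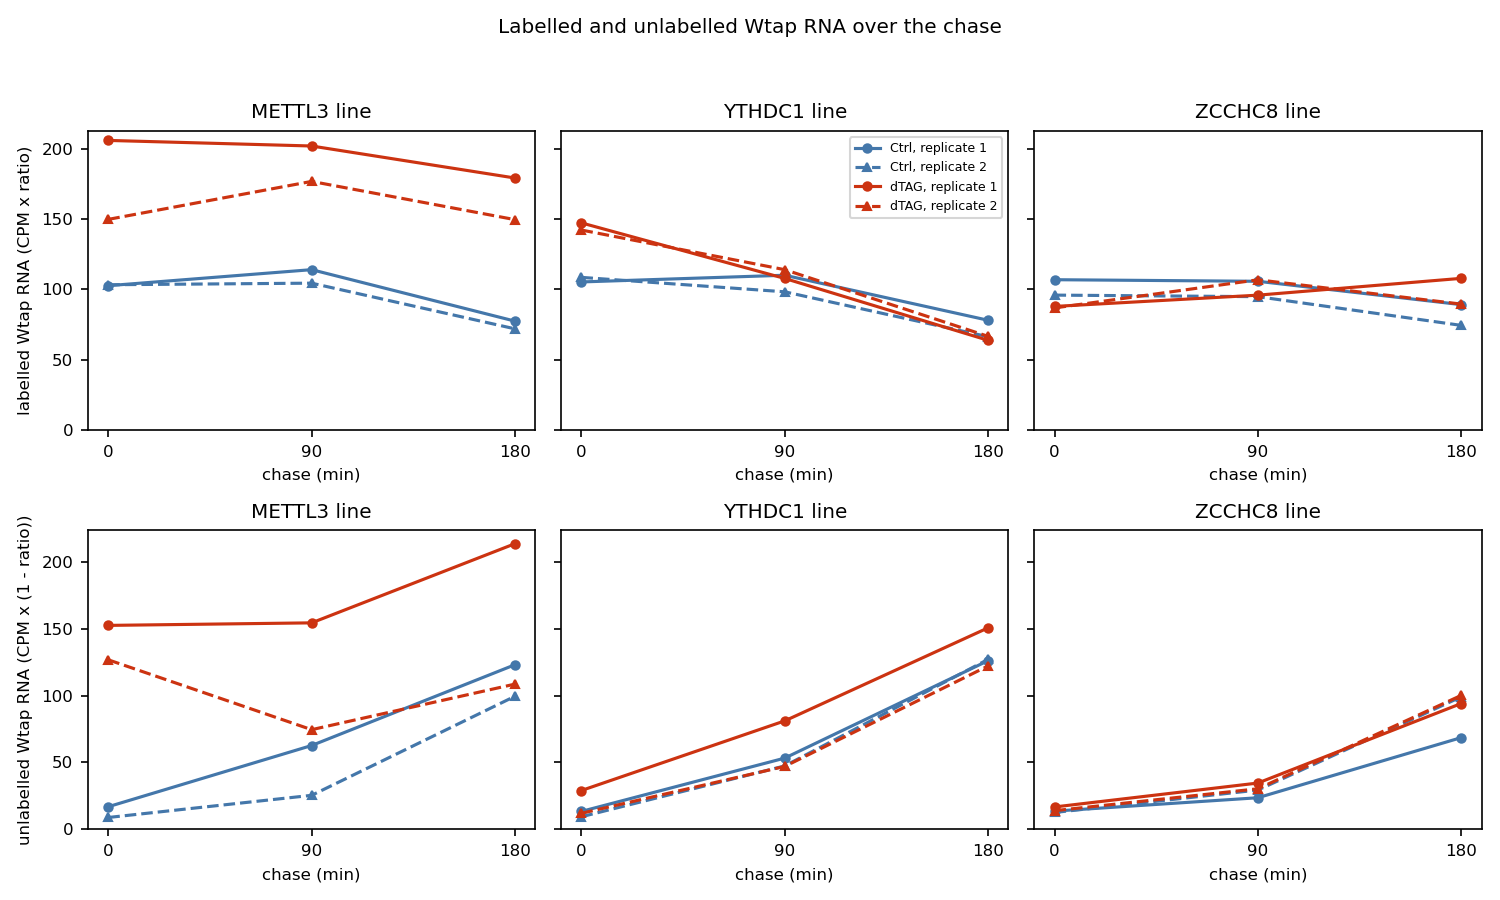
Labelled (upper row) and unlabelled (lower row) Wtap RNA in CPM against minutes of chase in the METTL3, YTHDC1 and ZCCHC8 lines, Ctrl in blue, dTAG in red, solid lines for replicate 1 and dashed lines for replicate 2. In the METTL3 line labelled Wtap stays between 149.7 and 206 CPM in dTAG and between 72.0 and 114 CPM in Ctrl, and the unlabelled pool at 0 min is 153 and 127 CPM against 16.8 and 8.68 CPM.

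In the other 2 lines no writer transcript passed the test for labelled share with dTAG. In the YTHDC1 line 5 members could be tested, since Cbll1 had too few reads in 1 library (77 against a minimum of 100), and none passed for the average share (0.306% of 8820 genes called) or for the slope (0% of genes, with 195 at an unadjusted p under 0.05). In the ZCCHC8 line none of 6 passed for the share (1.14% of 7251 genes) or for the slope (0% of genes, with 147 at an unadjusted p under 0.05). Wtap at 0 min was 0.888 and 0.922 in Ctrl and 0.836 and 0.923 in dTAG of the YTHDC1 line. It was 0.888 and 0.885 in Ctrl and 0.842 and 0.863 in dTAG of the ZCCHC8 line. The difference in labelled share between lines was not tested.

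Over both arms together, some writer transcripts rose in level during the uridine chase, and the arms were not tested apart. Mettl14 passed in every line, with log2 changes from 0 to 180 min of 0.71 (SE 0.142, adjusted p = 0.00839), 0.66 (SE 0.207, adjusted p = 0.0250) and 0.60 (SE 0.082, adjusted p = 9.62e-07). In the Ctrl libraries of the ZCCHC8 line it went from 34.5 and 33.1 CPM at 0 min to 40.5 and 45.8 CPM at 90 min and 53.3 and 57.4 CPM at 180 min. Wtap passed in 2 lines, YTHDC1 (0.44, adjusted p = 0.0195) and ZCCHC8 (0.65, adjusted p = 8.39e-08), and in the METTL3 line with the replicate block only (0.31, adjusted p = 0.0387).
Cbll1 rose by 0.75 (SE 0.094, adjusted p = 2.77e-07) in the ZCCHC8 line. In the YTHDC1 line its change was 1.00 (SE 0.419, adjusted p = 0.0760), and with the replicate block it was 1.08 (adjusted p = 8.05e-06). Mettl3 rose by 0.28 (SE 0.067, adjusted p = 0.000891) in the ZCCHC8 line, a call that was lost without replicate 2 (adjusted p = 0.0607), and by 0.16 with the replicate block in the YTHDC1 line (adjusted p = 0.0417). Rbm15b did not pass in any line (-0.11, 0.11 and -0.05). Zc3h13 passed with the block only, and in opposite directions, at -0.54 in the METTL3 line (adjusted p = 0.00927) and 0.24 in the YTHDC1 line (adjusted p = 0.00265).
In all, 1, 2 and 4 of 6 members passed in the METTL3, YTHDC1 and ZCCHC8 lines, all upward, beside 15.8%, 40.5% and 59.7% of all genes. With the block 3 and 5 passed in the METTL3 and YTHDC1 lines, beside 46.6% and 66.3%. The labelled share of all 6 was lower at 180 than at 0 min in Ctrl cells of the METTL3 line, and the alignment limited the mismatches of a read. The part of that limit in the rise was not tested.

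**Figure D5:**
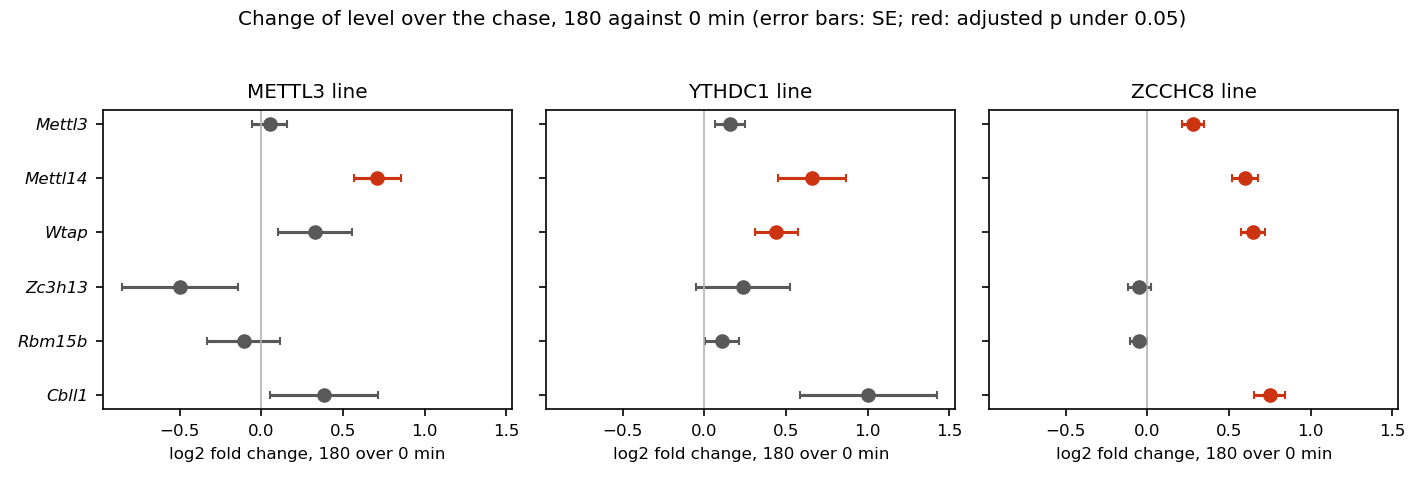
Log2 change in level of each writer gene from 0 to 180 min of chase, over both arms, in the METTL3, YTHDC1 and ZCCHC8 lines. Bars are the standard error and red marks an adjusted p under 0.05. Mettl14 is red in each line at 0.71, 0.66 and 0.60.

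Among 7 other genes of RNA methylation writers, 2 rose and none fell with dTAG in the METTL3 line, beside 19.9% of all genes called, with a list median of 0.16 on the log2 scale. They were Virma, the scaffold of the writer's regulatory part (0.62, SE 0.112, adjusted p = 0.00331), and Mettl16, which methylates U6 snRNA and the Mat2a transcript (0.30, SE 0.085, adjusted p = 0.0292). The Virma response was larger than in the YTHDC1 line by 0.45 (adjusted p = 0.00203). None of the 7 passed in the YTHDC1 line (5.1% of genes called). With ZCCHC8 degraded, where 39.6% of genes were called, 2 rose, the Rbm15b paralogue Rbm15 (0.28, adjusted p = 7.76e-05) and Pcif1, which methylates the cap-adjacent adenosine (0.32, adjusted p = 0.000114).
Of 11 genes of m6A readers and erasers, 4 rose and none fell in the METTL3 line (19.9% of genes called). These were the readers Ythdf2 (0.67, adjusted p = 0.00839), Ythdc1 (0.61, adjusted p = 0.00543) and Ythdf1 (0.35, adjusted p = 0.0247) and the demethylase Alkbh5 (0.30, adjusted p = 0.0254). In the YTHDC1 line Ythdc1 rose and Ythdf1 fell (5.1% called), while Igf2bp1 and Alkbh5 rose with ZCCHC8 degraded (39.6% called). None of 4 genes of methyl donor supply (Mat2a, Mat2b, Ahcy and Ahcyl1) passed in the METTL3 or YTHDC1 line, and Mat2a rose in the ZCCHC8 line (0.18, adjusted p = 0.0198).
In labelled share, Virma was lower with METTL3 depletion (log2 difference -0.63, SE 0.086, adjusted p = 1.08e-05), and 3 of the 5 other writer genes that could be tested, Virma included, were lower and none higher, beside 27.1% of genes. With the library median subtracted, 1 of the 5 (Virma) was lower and none higher, beside 2714 of 8289 genes called (810 lower and 1904 higher).

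The genes whose level followed each member most closely over the 36 libraries, after the mean of each line was taken off, are given as a description across libraries that share batches, chase times and arms. The difference between Ctrl and dTAG was not taken off, so it enters r. For Wtap they were Socs6 (Pearson r = 0.96 of log2(CPM + 1), among 15346 genes) and Mterf4 (r = 0.95), and for Cbll1 they were Rbbp6 (r = 0.96) and Kat6a (r = 0.94). Zc3h13 was closest to Pprc1 and Fam222b (r = 0.95 each), Mettl14 to Arid4a (r = 0.95) and Prpf38b (r = 0.93), and Rbm15b to Cactin (r = 0.92) and Bcl9l (r = 0.90). Mettl3 had the weakest best match, Cep44 (r = 0.80), followed by Tbpl1 (r = 0.77). Among the members the closest pair was Cbll1 and Mettl14 (r = 0.79), and Wtap and Mettl3 reached 0.49.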

How the data were processed

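RNA from 36 mouse embryonic stem cell libraries was prepared with a stranded total RNA kit and sequenced paired-end. The authors discarded rRNA reads, aligned with STAR 2.5.2b to mm10 and ran GRAND-SLAM per line and replicate. The deposited tables give read counts per gene, the new-to-total ratio as a fraction with its quantiles, and T-to-C conversion and coverage sums (signal). In all, 324 columns were matched to libraries and 108 (model parameters) were not. Of the matched columns, the double-hit conversions and double-hit coverage were not used.

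Counts were tested as deposited with edgeR 4.0.16 (filterByExpr, TMM, quasi-likelihood, arm and chase time as factors) in R 4.3.3. DESeq2 1.42.0 was an alternative. CPM scales counts to the library's summed counts, and CPM per kb divides by the longest annotated transcript. The log2 ratio was tested with limma 3.58.1 for genes where no library of the line fell under 100 reads or a ratio of 0.02. Adjusted p-values (Benjamini-Hochberg) cover all genes tested. All 6 members, and from the other lists up to 4 genes by smallest adjusted p, were to be named; the members and lists were chosen with earlier results of these data known. Both statistics were tested on simulated data drawn without replicate batches, so the simulation cannot show how they behave where libraries share a batch.

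Replicate numbers were taken to mark batches, since the study's reporting summary has the wells of a repeat come from a shared batch of cells. The main tests did not use this pairing. They carried no replicate block, which was run as an alternative. At the same chase time, deviations of same-numbered Ctrl and dTAG libraries from their group means correlated at 0.573 to 0.745 (METTL3 line), 0.632 to 0.695 (YTHDC1 line) and 0.160 to 0.175 (ZCCHC8 line). Over all 15 pairs of groups of the ZCCHC8 line the lowest was 0.0992. Depth (total counts) was 5274684 to 18652000 reads.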

Additional observations from a re-analysis of the deposited data

Results flagged for a closer look

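The response of Wtap to dTAG differed between lines by the test of the difference itself. It was larger in the METTL3 than in the YTHDC1 line by 0.85 on the log2 scale (SE 0.194, adjusted p = 0.00210), and smaller in the ZCCHC8 than in the METTL3 line by -1.05 (SE 0.195, adjusted p = 0.000177), both from edgeR. The 2 comparisons share the METTL3 libraries. Wtap was higher in dTAG in 6 of 6 pairs of the METTL3 line, 5 of 6 of the YTHDC1 line and 4 of 6 of the ZCCHC8 line. Each line was 1 clone, so the tagged protein and the clone cannot be told apart.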

How the results depend on the processing

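The 6 writer genes were examined in 705 combinations of member, comparison and alternative. In 580 the direction and the side of the threshold were as reported, in 15 a call was lost, in 45 one was gained and in 65 the sign turned. No call of a member in the main tests (all libraries, no replicate block) turned its sign. Calls gained with a replicate left out did turn in places, such as Rbm15b with dTAG in the METTL3 line. The rise of Wtap in the METTL3 line passed under every alternative run except the summed chase libraries. Library medians subtracted and the 0 min libraries alone were chosen after the data were seen. Levels rest on 2 libraries a group, and low members such as Cbll1 on as few as 77 reads.

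With the replicate block (paired libraries), members called in Ctrl levels went from 0 to 1 (METTL3 against YTHDC1, with all genes called from 2.36% to 14.2%). They went from 0 to 2 (ZCCHC8 against YTHDC1, 14% to 46.6% of genes) and from 1 to 3 (ZCCHC8 against METTL3, 30.1% to 53.5%). Over the chase they went from 1 to 3 and from 2 to 5 (METTL3 and YTHDC1 lines, 15.8% to 46.6% and 40.5% to 66.3% of genes). With dTAG they went from 0 to 2 and from 1 to 2 (YTHDC1 and ZCCHC8 lines, 5.1% to 26.9% and 39.6% to 45.7%). In loss of label they went from 0 to 1 (METTL3 line, 0.471% to 1.19%), and in the ZCCHC8 against METTL3 response from 1 to 2 (23.4% to 43.1%). With chase libraries summed, 0 members were called in any of the 3 lines, beside 0 genes in the METTL3 and YTHDC1 lines and 3828 of 15455 in the ZCCHC8 line. With the DESeq2 Wald test 0 members were called in the ZCCHC8 line, beside 4991 of 14227 genes. For labelled share in the METTL3 line the count was 0 with the T-to-C rate (692 of 8289 genes called) and 1 without the filter (2066 of 13958). It was 1 with library medians subtracted (2714 of 8289), under which loss of label had 3 (14.1% of genes). Beyond these and Mettl3 in labelled share of the METTL3 line, the block changed no call of a member.

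Leaving out 1 replicate gave 0 to 2, 1 to 3 and 1 to 3 members in the Ctrl comparisons (METTL3 against YTHDC1, ZCCHC8 against METTL3, ZCCHC8 against YTHDC1), beside 1.13% to 14.6%, 36.5% to 45.4% and 29.4% to 38.7% of all genes. It gave 0 in labelled share of the METTL3 line (7.66% to 8.51% of genes) and 3 and 3 to 5 over the chase (METTL3 line, 30.7% to 51.1%, and YTHDC1 line, 51.8% to 60%). With dTAG it gave 2 to 3, 1 and 0 (METTL3, YTHDC1 and ZCCHC8 lines, 39.2% to 51%, 9.52% to 23.9% and 24.3% to 36.6%), and 1 to 3 in each response involving the METTL3 line (24.6% to 41.9% against YTHDC1, 27.1% to 41.1% against ZCCHC8). Without replicate 1, Zc3h13 Ctrl levels passed in the turned direction, at -0.30 for ZCCHC8 against YTHDC1 (adjusted p = 4.82e-05) and -0.39 for ZCCHC8 against METTL3 (adjusted p = 6.77e-08).

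Over all genes, calls with dTAG in the METTL3 line went from 2920 to 7059 with the block and to 7524 and 5764 without replicate 1 and 2. In the YTHDC1 line they went from 737 to 3888, 3483 and 1368, to 1158 with the DESeq2 Wald test and to 0 with summed libraries (698 at an unadjusted p under 0.05). ZCCHC8 line calls fell from 5628 to 3509 without replicate 2. Labelled share in the METTL3 line went from 2246 to 692 with the T-to-C rate and to 763 and 650 without replicate 1 and 2.

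Signs also turned for values near 0, none called in the turned direction unless stated, and the cause was not tested. The response of Mettl14 between ZCCHC8 and YTHDC1 turned to 0.0253, 0.0263 and 0.00292, and that of Rbm15b between ZCCHC8 and METTL3 to 0.0272, 0.0270 and 0.00520, with DESeq2 size factors, the DESeq2 Wald test and no filter. The latter was 0.0258 with the replicate block, and the Mettl14 Ctrl level between METTL3 and YTHDC1 was -0.00790 with no filter. With library medians subtracted, labelled share turned in the METTL3 line for Mettl14 (0.0822), Wtap (0.0445) and Cbll1 (0.0852), in the YTHDC1 line for Zc3h13 (0.0137), and in the ZCCHC8 line for Mettl3 (0.0510), Wtap (0.0347), Zc3h13 (0.0403) and Cbll1 (0.0318), and loss of label for Mettl14 (YTHDC1, 0.00598) and Rbm15b (ZCCHC8, -0.00217). At 0 min alone it turned for Mettl14 (METTL3, 0.0546, and YTHDC1, 0.0640) and Zc3h13 (YTHDC1, 0.0885, and ZCCHC8, 0.00255). On the T-to-C rate labelled share turned in the ZCCHC8 line for Mettl14 (-0.0556) and Cbll1 (0.0207), and loss of label for Cbll1 (METTL3, 0.0523), Mettl3 and Mettl14 (YTHDC1, 0.0186 and 0.0181) and Mettl14 and Zc3h13 (ZCCHC8, 0.00496 and 0.0542).

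The ranges over left-out replicates of members whose sign turned were as follows. With dTAG, Mettl14 ran from -0.13 to 0.20 and Rbm15b from -0.12 to 0.22 in the METTL3 line, and Mettl14 from -0.19 to 0.0786 (YTHDC1, called without replicate 1) and from -0.0780 to 0.00920 (ZCCHC8). Over the chase Zc3h13 ran from -0.10 to 0.00986 (ZCCHC8). Responses of Rbm15b ran from -0.16 to 0.28 (METTL3 against YTHDC1, called without replicate 1) and from -0.13 to 0.25 (ZCCHC8 against METTL3), of Mettl14 from -0.0846 to 0.0867 (ZCCHC8 against YTHDC1) and from -0.16 to 0.0375 (ZCCHC8 against METTL3), and of Mettl3 from -0.0428 to 0.14 (ZCCHC8 against METTL3). Ctrl levels between METTL3 and YTHDC1 ran from -0.14 to 0.21 for Mettl14 and from -0.14 to 0.0122 for Wtap. Those between ZCCHC8 and YTHDC1 ran from -0.13 to 0.000916 for Mettl3, from -0.44 to 0.16 for Mettl14 and from -0.30 to 0.65 for Zc3h13. Those between ZCCHC8 and METTL3 ran from -0.39 to 0.59 for Zc3h13 and from -0.10 to 0.81 for Cbll1. Labelled share in the YTHDC1 line ran from -0.11 to 0.0554 (Mettl14), -0.23 to 0.0378 (Wtap), -0.0302 to 0.00587 (Zc3h13) and -0.15 to 0.0430 (Rbm15b). In the ZCCHC8 line it ran from -0.0541 to 0.0251 (Mettl3), -0.00686 to 0.0100 (Mettl14), -0.10 to 0.0433 (Wtap), -0.0564 to 0.00616 (Zc3h13), -0.16 to 0.00836 (Rbm15b) and -0.17 to 0.11 (Cbll1). Loss of label ran from -0.12 to 0.0256 (Mettl3) and -0.0901 to 0.0531 (Cbll1) in the METTL3 line, and from -0.0827 to 0.0346 (Mettl14) and -0.0915 to 0.0130 (Wtap) in the YTHDC1 line. In the ZCCHC8 line it ran from -0.10 to 5.53e-05 (Mettl14), -0.00143 to 0.0582 (Wtap), -0.0815 to 0.0707 (Zc3h13), -0.0423 to 0.0439 (Rbm15b) and -0.0571 to 0.14 (Cbll1).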
